A study of Mus musculus with 12 samples.

Results

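The chromatin around 4 genes of the intestinal stem cell and of Wnt signalling, Lgr5, Ascl2, Olfm4 and Axin2, was compared between epithelial cells sorted by the level of a Sox9 reporter. Every open region (peak) that overlapped a fixed window around each gene was taken, whatever its size. The windows on mm9 were chr10:114837000-115075000 for Lgr5, chr7:150100000-150200000 for Ascl2, chr14:80350000-80450000 for Olfm4 and chr11:108730000-108862000 for Axin2. They held 112 of the 210325 peaks in the 4 lists. Where peaks of different lists overlapped by at least 1 bp or touched, they were merged into a region, which gave 46 of the 82365 regions of the genome.

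The cells were intestinal epithelial cells of the strain C57Bl/6 with the Sox9EGFP reporter, an EGFP transgene read out by fluorescence, and age and sex are not given in the sources used here. They were sorted into Sox9 Negative, Sox9 Sublow, Sox9 Low and Sox9 High cells, with 3 Omni-ATAC-seq libraries per population and 12000 cells collected per population. Omni-ATAC-seq uses the Tn5 transposase to cut and tag accessible DNA. Earlier studies of this reporter found crypt base stem cells mainly among Low cells and transit-amplifying progenitors mainly among Sublow cells. Enteroendocrine and other secretory cells were found among High cells, and mostly differentiated cells among Negative ones. The lists analysed here hold 1 consensus set of peaks per population and no signal, so values have no replicate error and no test between populations could be made. A sort gate holds a mixture of cells, and the lists cannot tell fewer cells with an open site from less access per cell. Expression of the 4 genes was not analysed here.

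Wnt ligands act at the crypt base by stabilising beta-catenin, which joins TCF/LEF factors on DNA and switches on target genes. Lgr5 is a receptor for R-spondins, which amplify Wnt signals, and it marks the cycling stem cells of the crypt base. Ascl2 is a basic helix-loop-helix transcription factor of the same cells and is itself a Wnt target. Olfm4 is a secreted glycoprotein that marks crypt base stem cells and depends on Notch signalling. Axin2 is a scaffold of the complex that destroys beta-catenin, and as a Wnt target it acts as a feedback inhibitor.

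The promoter sequences of the genes are shown because the windows were chosen around these genes. They run from 250 bases before to 50 after the gene start and come from RefSeq on GRCm38.p6. The table held entries for Ascl2, Axin2 and Olfm4 and not for Lgr5. The Ascl2 promoter lies on the minus strand at chr7:142969215-142969514, that of Olfm4 on the plus strand at chr14:80000052-80000351 and that of Axin2 on the plus strand at chr11:108920099-108920398. These positions belong to GRCm38.p6 and not to the mm9 scale of the peaks, so no peak was placed on a promoter. Capitals mark E-boxes, written CANNTG, the letters that basic helix-loop-helix factors bind.
Ascl2: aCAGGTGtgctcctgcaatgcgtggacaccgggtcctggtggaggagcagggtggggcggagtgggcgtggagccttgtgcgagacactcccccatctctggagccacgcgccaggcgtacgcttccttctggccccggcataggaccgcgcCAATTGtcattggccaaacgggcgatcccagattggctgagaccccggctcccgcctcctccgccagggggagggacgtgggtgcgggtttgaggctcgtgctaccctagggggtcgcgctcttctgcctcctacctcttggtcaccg
Olfm4: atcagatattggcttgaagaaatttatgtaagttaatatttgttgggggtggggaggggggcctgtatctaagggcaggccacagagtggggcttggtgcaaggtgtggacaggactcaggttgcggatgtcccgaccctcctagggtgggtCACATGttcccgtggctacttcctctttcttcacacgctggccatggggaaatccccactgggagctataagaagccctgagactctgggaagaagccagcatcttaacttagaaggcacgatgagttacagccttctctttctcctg
Axin2: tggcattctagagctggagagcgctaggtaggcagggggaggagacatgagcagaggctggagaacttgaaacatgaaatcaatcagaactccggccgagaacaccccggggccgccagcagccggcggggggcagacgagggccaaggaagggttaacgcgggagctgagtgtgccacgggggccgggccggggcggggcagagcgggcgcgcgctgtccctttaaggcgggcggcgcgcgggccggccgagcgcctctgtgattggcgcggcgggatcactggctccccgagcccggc

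The Ascl2 promoter held 2 E-boxes, the Olfm4 promoter held 1 and the Axin2 promoter held 0, and 72.3% of the 32851 promoters in the table had at least 1. The TCF/LEF core CTTTGA was sought on both strands and matched none of the 3 promoters, against 16.0% of all promoters. The E-box form CAGCTG, a subset of CANNTG, was also in none of the 3 and in 16.3% of all. The GATA core AGATAA on both strands (11.2% of all promoters) and TATAAA on the gene strand (8.32%) were not in these 300 bases either. GC content was 67.0% for Ascl2, 52.3% for Olfm4 and 70.0% for Axin2, with a median of 52.7% over the table.

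The Low list covered the most DNA over the 4 windows together and in each of them except that of Axin2, where Sublow was ahead. Over the 4 windows, peaks covered 7916 bp in Negative cells, 18016 bp in Sublow cells, 21314 bp in Low cells and 11440 bp in High cells. Low thus covered 2.69 times as many bases as Negative and 1.86 times as many as High. Over the whole genome Low covered 1.40 times as many bases as Negative and 1.16 times as many as High, with 30.1 Mb in Low, 21.5 Mb in Negative and 25.9 Mb in High. The windows held 20 Negative peaks, 31 Sublow peaks, 36 Low peaks and 25 High peaks.

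Of the 46 regions, Negative held 19 (53.9% of all regions of the genome), Sublow 31 (62.8%), Low 36 (69.8%) and High 24 (65.1%). In percent of the 46, Low (78.3%) was above its genome share, Negative (41.3%) and High (52.2%) were below theirs, and Sublow (67.4%) was near its own. Around Axin2, however, Negative held 60.0% and High 73.3% of the 15 regions, both above their genome shares. Regions held by Low and not by High numbered 17 of 46, against 22.8% over the genome, and regions held by High and not by Low numbered 5, against 18.2%. Low held 8 that Sublow lacked, against 13.1%, and Sublow held 3 that Low lacked, against 6.1%.

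The size of the lead of Low differed from gene to gene. Low covered 4.42 times as many bases as Negative around Olfm4, 3.98 times around Ascl2, 2.74 times around Lgr5 and 1.72 times around Axin2. Against High, Low covered 4.43 times as many bases around Olfm4, 2.17 times around Lgr5, 1.73 times around Axin2 and 1.41 times around Ascl2. Against Sublow, Low was ahead 1.37-fold at Olfm4, 1.30-fold at Lgr5 and 1.29-fold at Ascl2, and at Axin2 the ratio was 0.968. The order of the genes therefore depended on the list that Low was set against. The genome-wide value of Low over Sublow was 1.05.

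**Figure D1:**
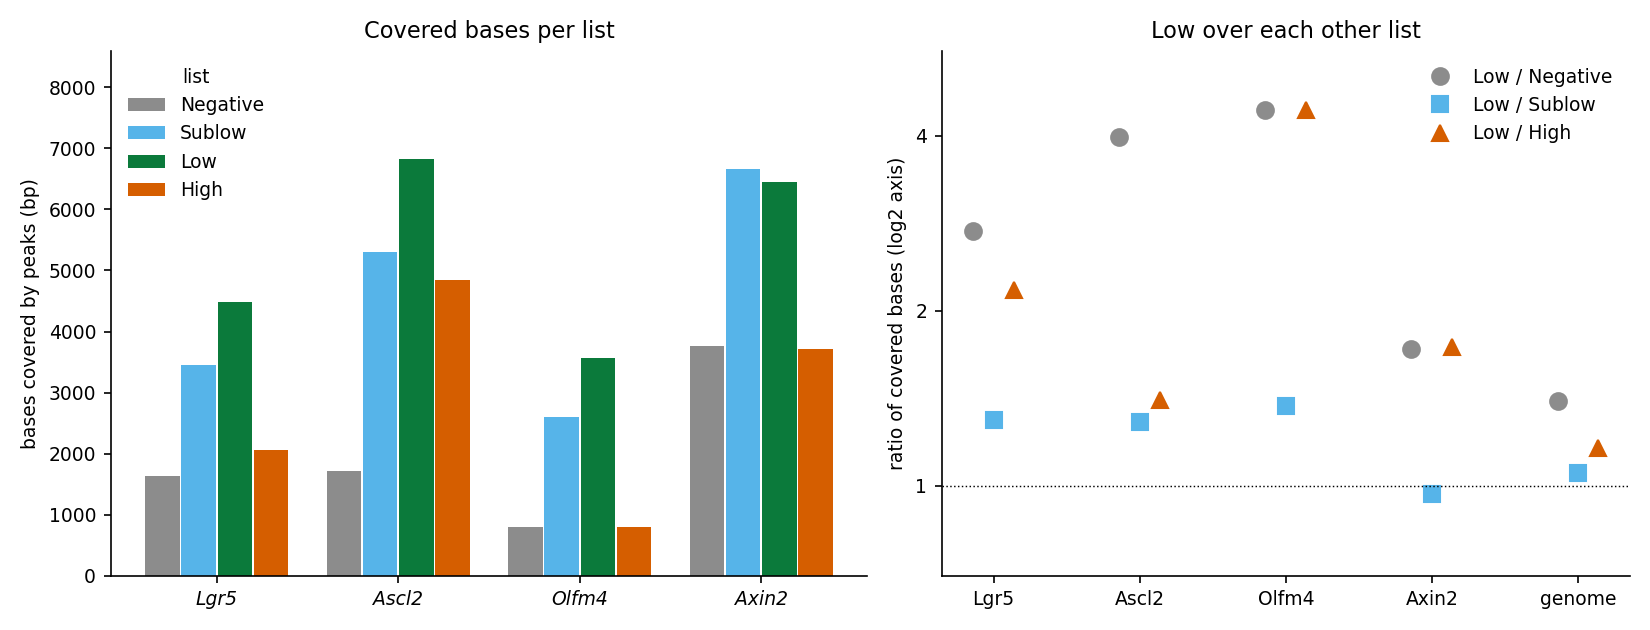
Left, bases covered by the peaks of each list in each gene window (bp). Right, the ratio of covered bases of Low over each other list on a log2 axis, for the 4 windows and the whole genome. Low over Negative was 4.42 at Olfm4, 3.98 at Ascl2, 2.74 at Lgr5 and 1.72 at Axin2, all above the genome value of 1.40.

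Regions that Low held and Negative lacked made up 20 of the 46 regions, against 27.1% of all regions of the genome. They were 5 of 9 around Lgr5, 7 of 13 around Ascl2, 5 of 9 around Olfm4 and 3 of 15 around Axin2. With lists of equal length made of their widest peaks, the Lgr5 count was 3 of 7, and without the outer 25 kb of each window the counts were 2 of 3 at Ascl2 and 0 of 10 at Axin2. In the other direction, 3 of the 46 regions were held by Negative and not by Low, against 11.2% genome-wide. The windows of Lgr5, Ascl2 and Olfm4 were above the genome share, and were so under each of the 6 alternatives tried. Of these, the alternative of peaks wholly inside the window could not change a count, because no region crossed a window edge. Axin2, the feedback inhibitor, was below the genome share. It was above with peaks of at least 200 bp (4 of 12 regions, against 28.9% over the genome). It was also above with lists of equal length made of their widest peaks (3 of 13, against 18.7%). Regions of all 4 lists were 3 of 9 around Lgr5, 3 of 13 around Ascl2, 1 of 9 around Olfm4 and 6 of 15 around Axin2, with 33.1% over the genome.

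Of the 20 regions that Low held and Negative lacked, Sublow also held 12, near the 54.2% of such regions over the genome. High also held 6, against 49.8% of such regions over the genome. The Low peaks in them were 166 to 785 bp wide, with a median of 408.5 bp, against a median of 286 bp over the genome. Width of at least 500 bp was reached by 8 of the 20, against 15.8% of such regions over the genome.

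**Figure D2:**
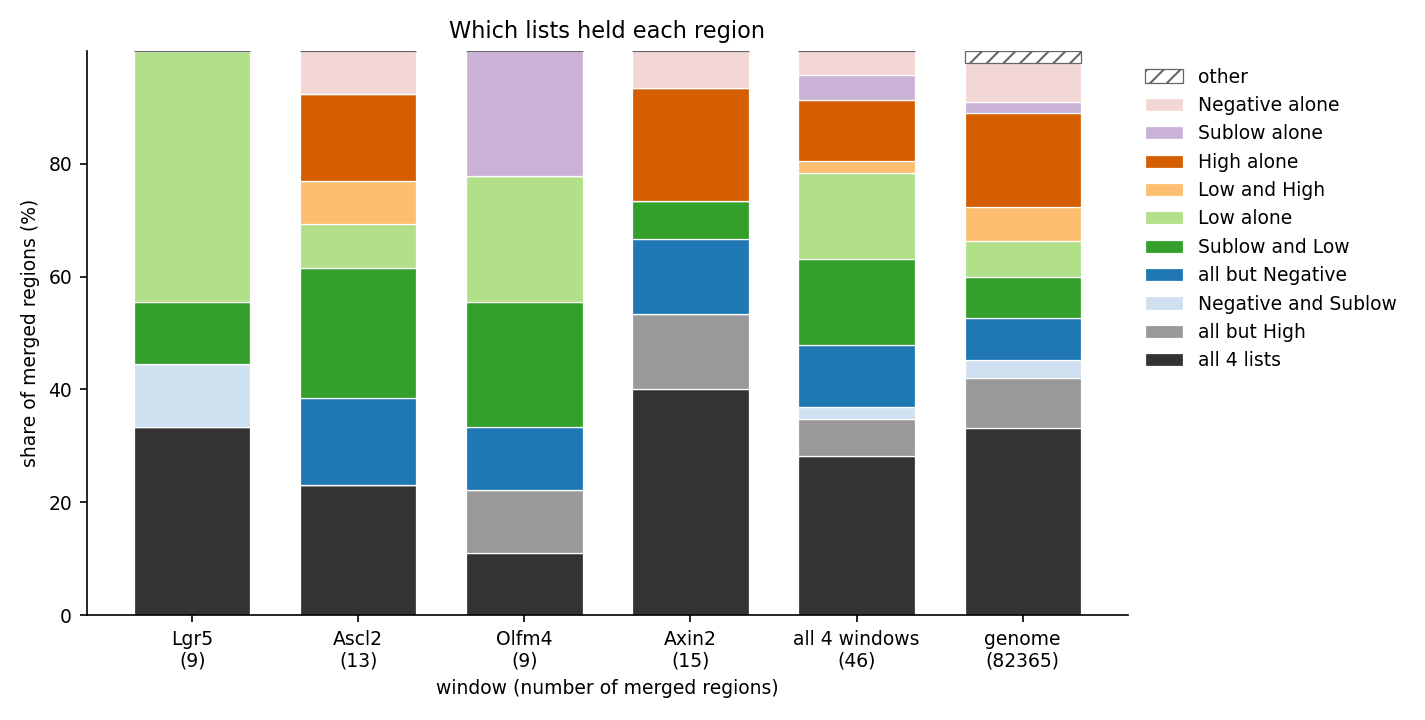
Share of merged regions (%) by the lists that held them, for each gene window, the 4 windows together and the whole genome, with the number of regions under each bar. The dark segment, regions of all 4 lists, was smallest around Olfm4 (1 of 9) and largest around Axin2 (6 of 15), and Low alone was the largest segment around Lgr5 (4 of 9).

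Around Lgr5, the R-spondin receptor, the Low list held nearly every region and the High list few. Of the 9 regions, Negative held 4, Sublow 5, Low 8 and High 3. Low alone held 4 regions, where 6.41% of the regions of the genome were held by Low alone. They lay at chr10:114871326-114871491 (166 bp), chr10:114871968-114872182 (215 bp), chr10:114930628-114930896 (269 bp) and chr10:115055548-115055806 (259 bp). All 4 were narrow beside the median Low peak of 433 bp, but near the median of 220 bp for regions of 1 list over the genome. The pair at the start of the window lay 476 bp apart.

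The widest Lgr5 region that Negative lacked was also missing from High. It lay at chr10:114998134-114998918, with a peak of 696 bp in Sublow and 785 bp in Low that began at the same base. Of all regions, 7.18% were held by Sublow and Low only. This region stood alone in a sparse stretch, 54.7 kb from the region before it. The only Lgr5 region that Low lacked was chr10:115061909-115062295, with 329 bp in Negative and 297 bp in Sublow, the pattern of 3.17% of regions over the genome.

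The 3 Lgr5 regions of all 4 lists had peaks of unequal width. The widest region of the window, chr10:115023610-115025054, had peaks of 700 bp in Negative cells, 1368 bp in Sublow cells, 1445 bp in Low cells and 1354 bp in High cells. Sublow, Low and High differed by at most 71 bp at either edge, whereas the Negative peak began 506 bp after the Low peak and ended 239 bp before it. At chr10:114942571-114943465 the widths were 335 bp in Negative cells, 699 bp in Sublow cells, 895 bp in Low cells and 536 bp in High cells. At chr10:114921621-114922069 they were 273 bp in Negative cells, 391 bp in Sublow cells, 449 bp in Low cells and 174 bp in High cells. Low had the widest peak in all 3, and the narrowest was in Negative at the first 2 and in High at the last.

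Low was the only list denser around Lgr5 than over its chromosome, with Sublow nearly equal. Per 100 kb of window, Negative had 1.68 peaks, Sublow had 2.10, Low had 3.36 and High had 1.26. Over chromosome 10, up to the last peak, Negative had 1.81, Sublow had 2.12, Low had 2.32 and High had 2.18. In the windows of Ascl2, Olfm4 and Axin2, every list was denser than over its chromosome. In the RefSeq gene table the protein-coding neighbours of Lgr5 are Zfc3h1 and Tspan8.

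**Figure D3:**
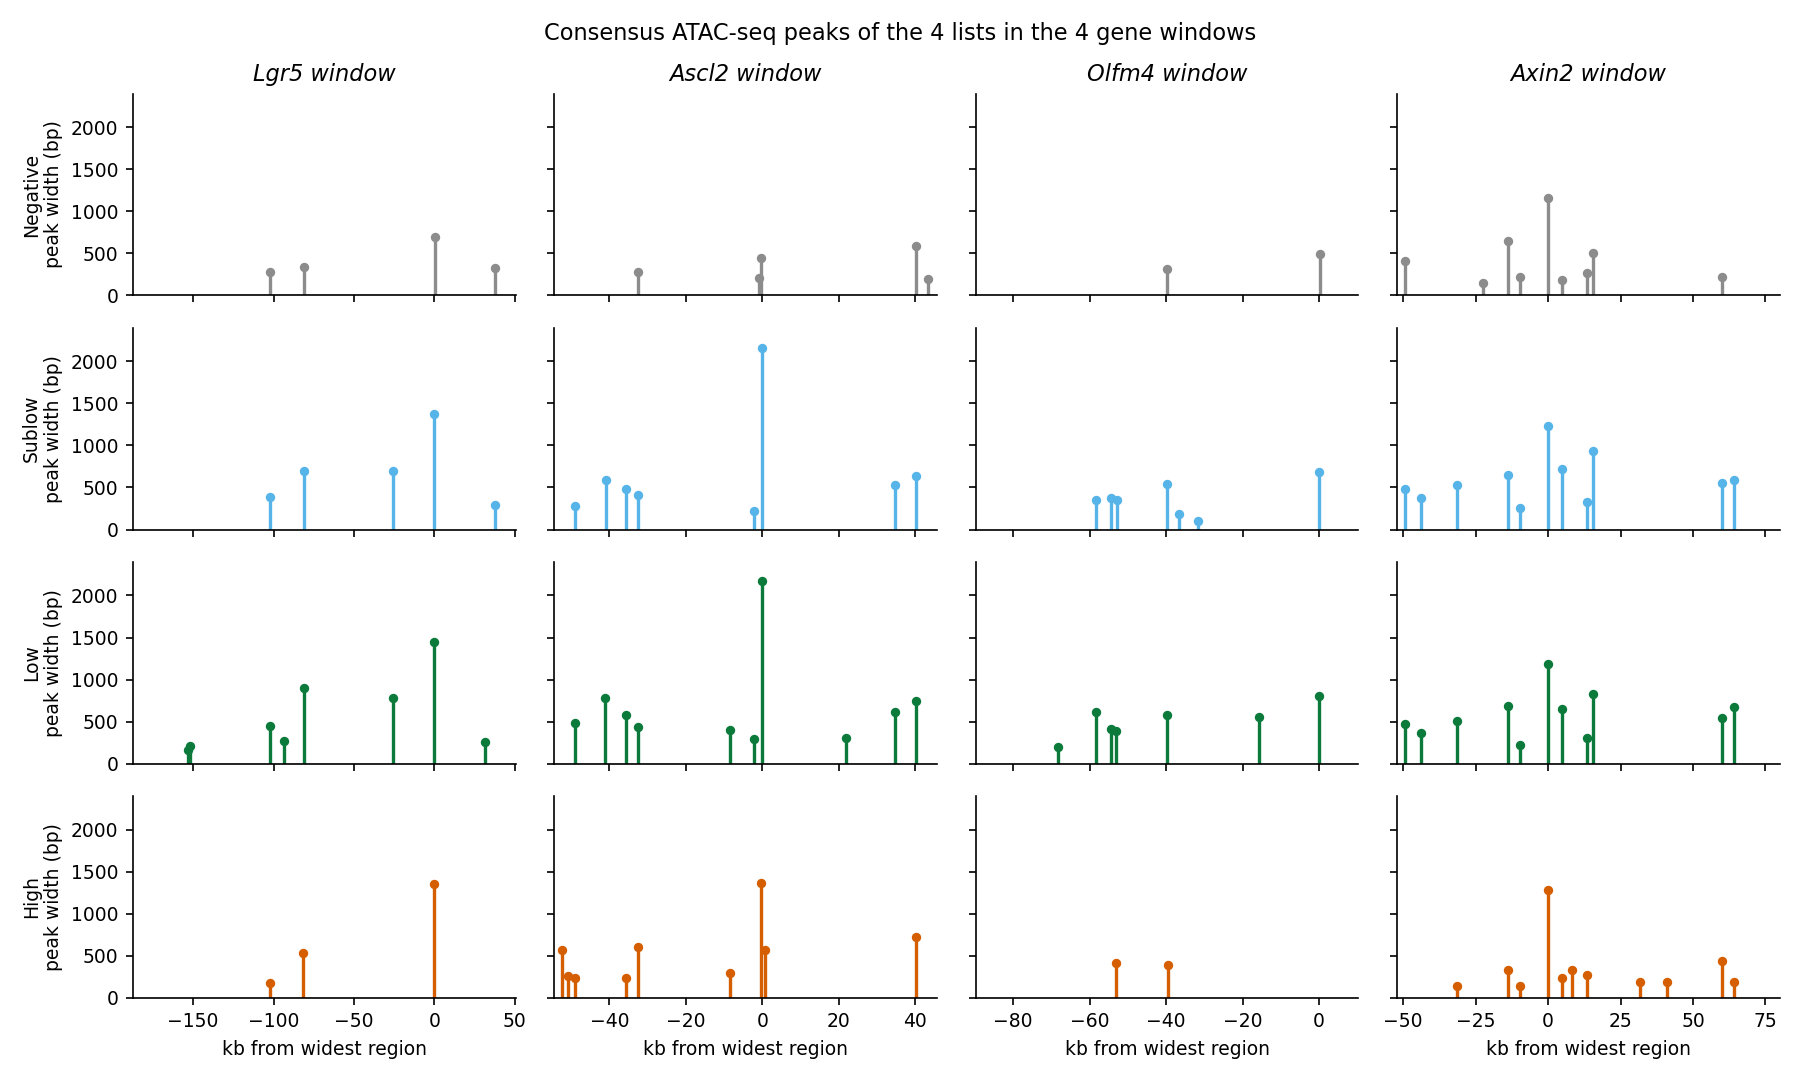
Every peak of the 4 lists in the 4 gene windows, drawn as a stem at its distance (kb) from the centre of the widest region of that window, with its height giving the peak width (bp). Around Lgr5 there were 4 Negative, 5 Sublow, 8 Low and 3 High peaks, and around Olfm4 2 Negative, 7 Sublow, 7 Low and 2 High peaks.

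Around Ascl2, the stem cell transcription factor, Negative was the list that stood apart. Of the 13 regions, Negative held 4, Sublow 8, Low 10 and High 8. Peaks covered 1715 bp in Negative cells, 5307 bp in Sublow cells, 6821 bp in Low cells and 4851 bp in High cells. High covered 2.83 times as many bases as Negative here, against 1.20 times over the genome.

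The widest region of the 4 windows lay around Ascl2, at chr7:150153225-150155437. Sublow and Low each had a single peak across it, of 2161 bp and 2168 bp. High had 2 peaks of 1362 bp and 573 bp, separated by 230 bp, which together spanned nearly the same stretch. Negative had 2 narrow peaks of 211 bp and 445 bp, separated by 226 bp, which ended 1220 bp before the Low peak. Low covered 3.30 times as many bases as Negative in this region, and 2.74% of the 27294 regions of all 4 lists over the genome had a ratio at least as high.

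**Figure D4:**
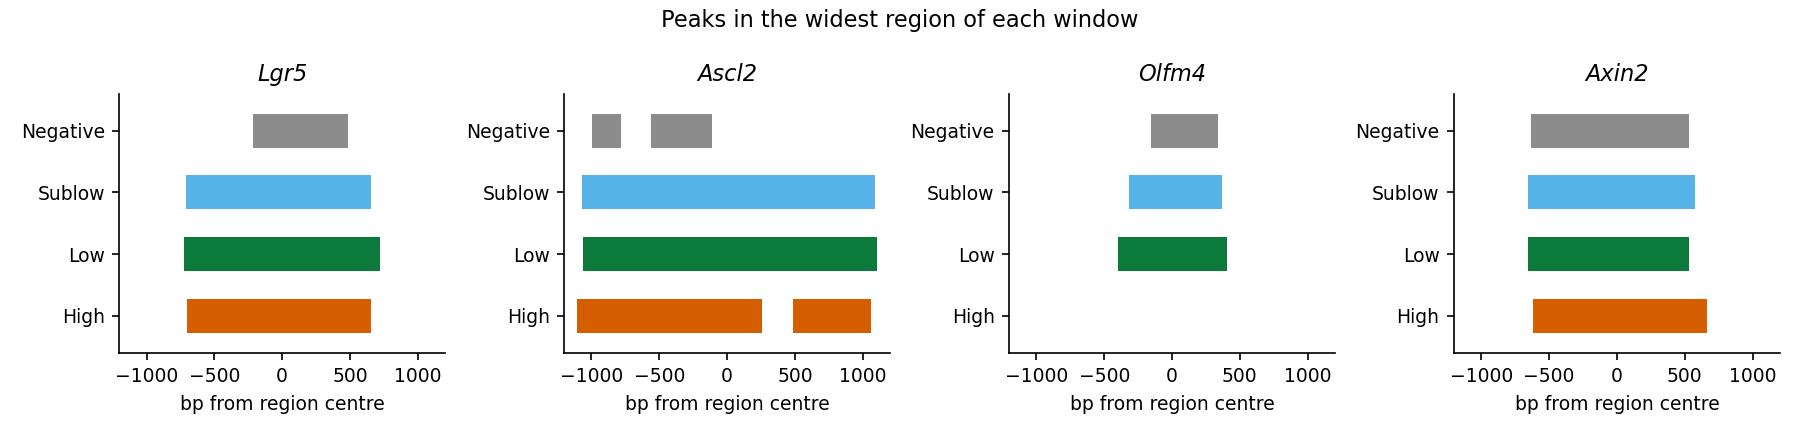
Peaks in the widest region of each window, drawn to scale by distance from the region's centre (bp). Negative peaks were shorter around Lgr5 (700 bp, where Low had 1445 bp) and Ascl2 (211 and 445 bp), High had no peak in the Olfm4 region, and the Axin2 peaks spanned 1163 to 1280 bp in every list.

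The 7 Ascl2 regions that Low held and Negative lacked were of 4 kinds. Sublow and Low only held 3 of them, at chr7:150112885-150113668, chr7:150188624-150189248 and chr7:150151882-150152173. Their Low peaks measured 784, 613 and 292 bp. Sublow, Low and High held 2, at chr7:150118277-150118856 and chr7:150105125-150105609, with Low peaks of 580 and 485 bp and High peaks of 230 and 235 bp. This pattern had 7.49% of regions over the genome. Low and High only held chr7:150145630-150146032, with 403 bp in Low and 298 bp in High, a pattern with 5.98% over the genome. Low alone held chr7:150176005-150176308 (304 bp).

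High alone held 2 regions at the start of the Ascl2 window, chr7:150101771-150102337 (567 bp) and chr7:150103403-150103662 (260 bp). Over the genome, 16.6% of regions were held by High alone. Negative alone held chr7:150197493-150197685 (193 bp) at the other end of the window, with 6.82% held by Negative alone over the genome. The Ascl2 window is the one where position bears most on the counts. Without its outer 25 kb on each side, 3 of the 13 regions were left, of which 2 were held by Low and not by Negative and 1 by all 4 lists. The protein-coding neighbours of Ascl2 in the gene table are Th and Tspan32, and to which gene the outer regions belong was not tested.

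In the remaining Ascl2 regions of all 4 lists the widths differed less. At chr7:150193989-150194749 they were 592 bp in Negative cells, 642 bp in Sublow cells, 751 bp in Low cells and 722 bp in High cells. At chr7:150121589-150122192 they were 274 bp in Negative cells, 408 bp in Sublow cells, 441 bp in Low cells and 604 bp in High cells. This last region was 1 of the 2, among the 13 regions of all 4 lists, where High had the widest peak.

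Around Olfm4, the secreted stem cell marker, Sublow and Low held most of the open chromatin and Negative and High had little. Of the 9 regions, Negative held 2, Sublow 7, Low 7 and High 2. Low held 5 of the 7 Sublow regions (71.4%), against 90.3% over the genome. Sublow held 5 of the 7 Low regions (71.4%), against 81.3%. Peaks covered 805 bp in Negative cells, 2593 bp in Sublow cells, 3560 bp in Low cells and 804 bp in High cells. The Negative and High totals were nearly equal, and the lists shared 1 region, with 314 bp in common. That was 1 of 2 regions for each list. Over the genome, Negative held 53.3% of the High regions and High held 64.3% of the Negative ones.

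The region of all 4 lists around Olfm4 was chr14:80399753-80400336, with peaks of 314 bp in Negative cells, 538 bp in Sublow cells, 584 bp in Low cells and 390 bp in High cells. The widest region of the window, chr14:80439338-80440139, had 491 bp in Negative cells, 685 bp in Sublow cells and 802 bp in Low cells, and no peak in High. Over the genome, 8.92% of regions were held by these 3 lists and lacked by High. In both regions the peaks widened in the order Negative, Sublow, Low. Covered bases rose in the same order in every Lgr5 and Ascl2 region of all 4 lists, though not in every Axin2 one.

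The 5 Olfm4 regions that Low held and Negative lacked lay on both sides of the region of all 4 lists. Sublow and Low only held chr14:80381081-80381696 (352 bp in Sublow, 616 bp in Low) and chr14:80385091-80385504 (379 bp in Sublow, 414 bp in Low). Sublow, Low and High held chr14:80386552-80386965, where Sublow had 349 bp, Low had 389 bp and High had 414 bp. Low alone held chr14:80423858-80424411 (554 bp) and chr14:80371285-80371485 (201 bp).

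Sublow alone held 2 narrow Olfm4 regions, chr14:80402887-80403074 (188 bp) and chr14:80408000-80408101 (102 bp). Over the genome 2.06% of regions were held by Sublow alone. The protein-coding neighbours of Olfm4 in the gene table are Pcdh8 and Pcdh17. Negative and High had 2 peaks each per 100 kb of window, and Sublow and Low had 7 each. Over chromosome 14, up to the last peak, Negative had 1.39 per 100 kb, Sublow had 1.58, Low had 1.81 and High had 1.63.

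Around Axin2, the feedback inhibitor, Sublow and Low were almost the same, while High overlapped them less in bases, but not in regions, than over the genome. Of the 15 regions, Negative held 9, Sublow 11, Low 11 and High 11. Sublow and Low held the same 11 regions, and their Jaccard index, the share of all bases covered by either list that both covered, was 0.896. The index of Sublow and Low was 0.773 around Ascl2, 0.660 around Lgr5, 0.598 around Olfm4 and 0.743 over the genome. Around Axin2 the index of Sublow and High was 0.388, against 0.504 over the genome, and that of Low and High was 0.390, against 0.541. By regions, High held 8 of the 11 Low regions (72.7%), against 67.3% over the genome. It also held 8 of the 11 Sublow regions (72.7%), against 66.0%. The median peak around Axin2 was 230 bp in High and 541 bp in Low, against 383 bp and 433 bp over the genome. The 6 of 15 regions held by all 4 lists were not far from the 33.1% of the genome, and with peaks of at least 200 bp they were 4 of 12, against 33.5%.

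The widest Axin2 region, chr11:108781423-108782742, was almost the same in each list. Its peaks measured 1163 bp in Negative cells, 1236 bp in Sublow cells, 1187 bp in Low cells and 1280 bp in High cells. The ratio of Low to Negative was 1.02, against a genome median of 1.17 for regions of all 4 lists. High had the widest peak.

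Other Axin2 regions of all 4 lists were unequal. At chr11:108786551-108787332 the peaks measured 186 bp in Negative cells, 721 bp in Sublow cells, 655 bp in Low cells and 230 bp in High cells. Low covered 3.52 times as many bases as Negative there and 2.85 times as many as High, but fewer than Sublow. Over the genome, 2.22% and 3.42% of the regions of all 4 lists had ratios at least as high. At chr11:108841659-108842258 the peaks were 221 bp in Negative cells, 558 bp in Sublow cells, 541 bp in Low cells and 442 bp in High cells. At chr11:108767945-108768624 Negative (641 bp), Sublow (648 bp) and Low (680 bp) were alike and High was narrower (328 bp). The last 2, at chr11:108795215-108795538 and chr11:108772302-108772559, were narrow in every list, from 145 to 323 bp.

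The 3 Axin2 regions that Low held and Negative lacked were all held by Sublow too. They lay at chr11:108845875-108846547 (590 bp in Sublow, 673 bp in Low, 190 bp in High), chr11:108750267-108750859 (528 bp in Sublow, 502 bp in Low, 146 bp in High) and chr11:108738067-108738451 (379 bp in Sublow, 370 bp in Low). None of the 3 was left when the outer 25 kb of the window were removed. Regions held by Negative, Sublow and Low and lacked by High were chr11:108732496-108732985 and chr11:108797058-108797994. In the second the peaks measured 505 bp in Negative cells, 937 bp in Sublow cells and 834 bp in Low cells.

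Axin2 had 4 regions of a single list, in shares near those of the genome. High alone held chr11:108790237-108790561 (325 bp), chr11:108813683-108813866 (184 bp) and chr11:108822923-108823106 (184 bp), which are 3 of the 15 regions, against 16.6% over the genome. Negative alone held chr11:108759556-108759699 (144 bp), 1 of the 15, against 6.82%. Low alone held 0 of 15, against 6.41%. The neighbours of Axin2 in the gene table are Cep112 and Rgs9.

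Where all 4 lists held a region, the Low peaks were wider than the Negative ones. Low covered more bases than Negative in 13 of 13 such regions, against 80.1% of the 27294 over the genome, and Sublow covered more than Negative in 13 of 13, against 86.2%. As a log2 ratio, Low over Negative had a median of 0.72, with a range of 0.01 to 1.82, against a genome median of 0.22. It exceeded the genome median in 9 of 13 regions, namely all of Lgr5, Ascl2 and Olfm4 and 2 of 6 at Axin2. Low covered more bases than High in 11 of 13, against 69.6%, and more than Sublow in 8 of 13, against 44.4%. Negative had the fewest bases in 9 of 13, against 56% over the genome, and High in the other 4. Low had the most bases in 7 of 13, against 32.6%.

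**Figure D5:**
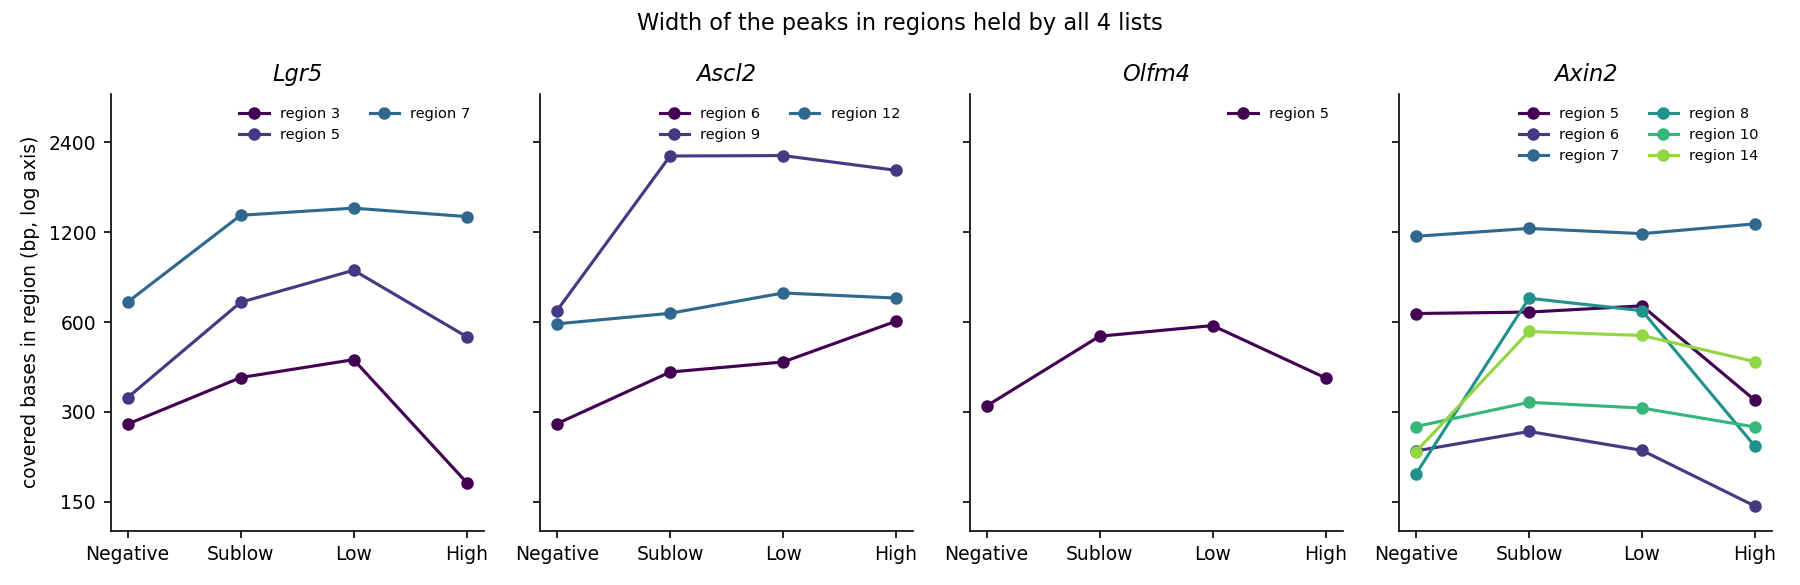
Bases covered by each list (bp, log axis) in the 13 regions held by all 4 lists, with a line for each region, numbered along its window. Negative was lowest in 9 of the 13 and Low highest in 7, and the widest Axin2 region was nearly flat at 1163 to 1280 bp.

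In all 17 regions with peaks from 2 or 3 lists, those lists were neighbours in reporter level, near the 93.7% seen over the genome. Low also held 16 of the 19 Negative regions in the windows (84.2%), near the 79.3% over the genome. It held 19 of the 24 High regions (79.2%), against 72.1% over the genome. The pair of Negative and Low had an index over the 4 windows of 0.328, against 0.522 over the genome, and that of Low and High 0.409, against 0.541. Sublow and Low had 0.757, against 0.743. By gene, the index of Negative and Low was 0.272 at Lgr5, 0.217 at Ascl2 and 0.226 at Olfm4. At Axin2 it was 0.543, slightly above the genome value of 0.522.

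The nearest region before the Lgr5 window was held by all 4 lists and lay 3606 bp away, and the nearest after it was held by High alone. The nearest regions before and after the Ascl2 window were held by High alone and by all 4 lists. For Olfm4 they were held by Sublow, Low and High and by High alone, and for Axin2 by High alone and by all 4 lists.

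The 4 lists differ in length over the genome, from 45461 peaks (Negative) to 58356 (Low), and in median peak width, from 383 bp (High) to 464 bp (Sublow). Depth is unknown, and its part in the number and width of peaks was not tested. Absence from a list says only that no consensus peak was given there.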

How the data were processed

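Omni-ATAC-seq was made from 12 libraries, 3 per population. Per the submitters' processing notes, MACS2 2.1.2, deepTools 2.5.2, Picard 2.10.3, Bowtie2 2.3.4 and Trim Galore 0.4.3 were used with the mm9 build. Not given in the sources used here are their roles and settings, any Tn5 shift and the rule that combined libraries. For each population the authors deposited 1 consensus list, with the chromosome, start, end and name of each peak, and no score, count or library value, so depth is unknown. Some peaks had equal start and end, which was read as counting from 1 with both ends included. If starts count from 0, they would move by 1 bp.

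Peaks were merged over the whole genome, and merged regions that overlapped a window were kept. Genome shares use all merged regions, and a region is named if it is the widest of its window, is held by 1 list, or is among the 5 widest that Low held and Negative lacked. Other regions named, and the smaller ones of the last kind at Ascl2, were chosen after their values were seen. The windows, members and lists were chosen with earlier results of these data known. The gene table of RefSeq is on GRCm38.p6 (4 of 4 genes matched) and was used for names and neighbours. Genes within the peaks, and a list of further Wnt and stem cell genes, were not analysed here. Merging was tested on simulated data. Python 3.11.15, numpy 2.4.6, pandas 2.3.3 and matplotlib 3.10.9 were used.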

Additional observations from a re-analysis of the deposited data

How the results depend on the processing

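No paired analysis was possible because the libraries were combined into consensus lists before deposit, and so no replicate could be left out. For each window, the number of regions held by all 4 lists and the number held by Low and not by Negative were recomputed under 6 alternatives, and 44 of the 48 values stayed within 1.5 times the reported count. The alternatives were a reciprocal overlap of 50%, merging of peaks up to 500 bp apart, peaks of at least 200 bp, the widest 45461 peaks of each list, peaks wholly inside the window, and windows without their outer 25 kb. Without the outer 25 kb, regions held by Low and not by Negative numbered 2 at Ascl2 and 0 at Axin2, and regions of all 4 lists numbered 1 at Ascl2. A smaller window holds fewer regions by construction. No region crossed a window edge, so the counts for peaks wholly inside the window could not change, and they are among the 44. With the widest peaks only, regions held by Low and not by Negative numbered 3 at Lgr5, which drops narrow peaks by construction, and this share was 18.7% over the genome. Depth is unknown and limits every count of absence.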
